A study of Mus musculus with 33 samples.

Results

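The interferon response genes described here were 37 mouse genes chosen by name: 10 antiviral effectors of the Ifit, Oas and Mx families, 9 interferon-induced GTPases of the Gbp and Irg families, and 18 further genes of interferon signalling, RNA sensing, the ISG15 system, other antiviral functions and antigen processing. All 37 were present among the 38899 genes listed in every table. Messenger RNA was measured by RNA sequencing in 33 libraries, 3 for each of 11 cell populations taken from the leg bones of C57BL/6 mice of 8 to 12 weeks. Values are FPKM, read counts divided by transcript length and library size, so that levels of different genes can be compared per length.

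The first 3 populations were blood-forming cells of untreated wildtype mice: the whole marrow (BMC), cells without lineage markers (Lin-) and LSK cells, the fraction that contains the stem cells. The other 8 populations were sorted by a fluorescent reporter and are called endothelial cells (EC) here, as in the labels. Bone EC were whole bone GFP+ cells of untreated Cdh5-mTnG mice, and irradiated bone EC were the same cells after 9 Gy, with no time given. A further pair of whole bone GFP+ groups is named Vav1 DTX EC and Vav1 control EC here. Both carried the same genotype and treatment labels: Vav1-Cre R26-DTR Cdh5-mTnG mice, treated with diphtheria toxin. Sample titles (Bone EC_DTX and Bone EC_ctrl) and value columns (Vav1-Cre and Vav1-Cont) tell them apart, but what the control lacked is not stated. R26-DTR supplies the diphtheria toxin receptor to cells with Cre, and Vav1-Cre is used to reach blood cells but can also act in some endothelial cells. Apln+ EC were whole bone GFP+ cells of Apln-CreERT2, R26-mTmG mice given tamoxifen, and diaphysis EC were GFP+ cells of the femoral shaft of untreated Cdh5-mTnG mice. The 9Gy1D EC were Tomato+/GFP+ bone marrow cells of Cdh5-mTnG mice after 9 Gy, and Esm1+ EC were Tomato+/GFP+ bone marrow cells of Esm1-CreER, R26-mTmG mice given tamoxifen. Genotype, reporter and tamoxifen therefore differed together with irradiation, or with bone region, in the last 2 pairs, and these factors cannot be told apart. Every replicate carried only a number, and nothing states that replicates came from separate animals, so p-values measure the spread between these libraries only.

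Interferons are secreted proteins that bind receptors on the cell surface and activate Janus kinases and STAT proteins. Type I interferon signals through a complex that includes STAT2 and IRF9 to the interferon-stimulated response element (ISRE), whereas interferon gamma signals mainly to the gamma-activated site (GAS) and induces IRF1, which in turn binds ISRE-like sequence. IFIT, OAS and Mx proteins restrict viruses inside the cell and are classical targets of type I interferon, while guanylate-binding proteins (GBP) and immunity-related GTPases (IRG) attack intracellular pathogens and respond strongly to interferon gamma. Most of these genes respond to both interferons, and endothelial cells respond to each.

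The promoters of 8 members are shown as examples of genes that hold 1 of these elements, both or neither in the window. The windows run from 250 bases before to 50 bases after the transcription start and come from RefSeq on GRCm38.p6. Capitals mark the ISRE core (GAAANNGAAA, or TTTCNNTTTC where it lies on the other strand) and the GAS (TTCNNNGAA, which reads the same on both strands). The first 3 are the antiviral genes with a window that differed most in irradiated bone EC, the next 3 are GTPases that differed strongly there, and the last 2 are the transcription factor genes Irf1 and Irf7.
Ifit3 (chr19:34583279-34583578, plus strand): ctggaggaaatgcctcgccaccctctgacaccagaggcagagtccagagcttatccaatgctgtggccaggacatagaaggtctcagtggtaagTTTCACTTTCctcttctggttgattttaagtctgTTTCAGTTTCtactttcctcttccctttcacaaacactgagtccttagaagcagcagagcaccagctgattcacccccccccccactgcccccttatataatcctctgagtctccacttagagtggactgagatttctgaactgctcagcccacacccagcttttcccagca
Oas3 (chr5:120777610-120777909, minus strand): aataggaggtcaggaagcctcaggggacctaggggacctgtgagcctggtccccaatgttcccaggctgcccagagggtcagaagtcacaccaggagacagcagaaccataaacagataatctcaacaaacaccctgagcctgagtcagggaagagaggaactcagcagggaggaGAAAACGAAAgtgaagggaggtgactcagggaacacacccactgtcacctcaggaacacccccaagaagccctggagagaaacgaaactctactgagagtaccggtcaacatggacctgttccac
Ifit2 (chr19:34550444-34550743, plus strand): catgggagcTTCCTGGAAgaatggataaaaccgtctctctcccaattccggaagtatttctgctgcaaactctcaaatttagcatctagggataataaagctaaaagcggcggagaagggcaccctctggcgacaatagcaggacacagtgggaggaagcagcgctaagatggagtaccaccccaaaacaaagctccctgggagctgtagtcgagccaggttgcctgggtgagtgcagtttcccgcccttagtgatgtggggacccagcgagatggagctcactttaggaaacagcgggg
Igtp (chr11:58199306-58199605, plus strand): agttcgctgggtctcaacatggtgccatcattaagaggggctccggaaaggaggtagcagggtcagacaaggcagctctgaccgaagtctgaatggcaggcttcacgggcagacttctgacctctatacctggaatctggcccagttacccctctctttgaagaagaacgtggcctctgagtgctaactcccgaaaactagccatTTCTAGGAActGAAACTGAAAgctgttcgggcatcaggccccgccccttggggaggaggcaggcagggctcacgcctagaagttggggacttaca
Gbp2 (chr3:142620413-142620712, plus strand): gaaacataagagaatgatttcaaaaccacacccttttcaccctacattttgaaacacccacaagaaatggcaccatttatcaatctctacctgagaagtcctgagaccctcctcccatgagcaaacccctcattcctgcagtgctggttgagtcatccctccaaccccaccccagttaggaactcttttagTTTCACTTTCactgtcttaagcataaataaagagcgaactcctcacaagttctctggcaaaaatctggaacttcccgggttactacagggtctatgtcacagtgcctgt
Gbp7 (chr3:142530086-142530385, plus strand): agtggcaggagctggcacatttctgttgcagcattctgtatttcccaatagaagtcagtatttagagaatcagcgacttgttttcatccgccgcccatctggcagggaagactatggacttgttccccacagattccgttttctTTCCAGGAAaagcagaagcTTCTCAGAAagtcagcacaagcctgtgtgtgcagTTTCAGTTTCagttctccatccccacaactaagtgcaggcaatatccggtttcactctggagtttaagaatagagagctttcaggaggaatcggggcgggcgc
Irf1 (chr11:53769764-53770063, plus strand): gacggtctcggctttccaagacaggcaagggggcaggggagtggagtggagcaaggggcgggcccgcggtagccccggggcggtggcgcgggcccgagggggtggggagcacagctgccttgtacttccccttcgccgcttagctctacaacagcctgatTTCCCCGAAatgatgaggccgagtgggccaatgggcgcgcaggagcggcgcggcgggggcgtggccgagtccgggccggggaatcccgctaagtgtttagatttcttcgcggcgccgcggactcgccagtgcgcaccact
Irf7 (chr7:141266375-141266674, minus strand): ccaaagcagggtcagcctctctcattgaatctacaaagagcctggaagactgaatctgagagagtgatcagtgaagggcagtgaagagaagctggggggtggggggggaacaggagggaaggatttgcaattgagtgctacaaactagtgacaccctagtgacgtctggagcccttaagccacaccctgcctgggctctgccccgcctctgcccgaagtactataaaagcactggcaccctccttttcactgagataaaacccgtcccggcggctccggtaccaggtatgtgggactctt
Ifit3 holds 2 ISRE cores, starting at -156 and -122 from the transcription start, Oas3 holds 1 at -75, and Gbp2 holds 1 at -59. Igtp holds an ISRE core at -34 with a GAS at -45, and Gbp7 an ISRE core at -53 with GAS matches at -106 and -87. Ifit2 and Irf1 hold a GAS alone, at -241 and -90, and Irf7 holds neither in this window.

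RefSeq windows were found for 31 of the 37 members, and those of Oas2, Mx1, Mx2, Usp18, Iigp1 and Gbp6 were not analysed here. The ISRE core was present in the first listed window of 17 of the 31 members, against 3.49% of the first windows of 27025 genes. The GAS was present in 10 of the 31, against 8.47% of those genes, and 6 members held both. All 7 GTPases with a window held the ISRE core and 4 of them also held a GAS, while 4 of 7 antiviral genes held the ISRE core and 2 held a GAS. Among the remaining 17 members with a window, 6 held the ISRE core and 4 a GAS, and in Bst2 the matches overlapped. A match describes these letters only.

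**Figure D1:**
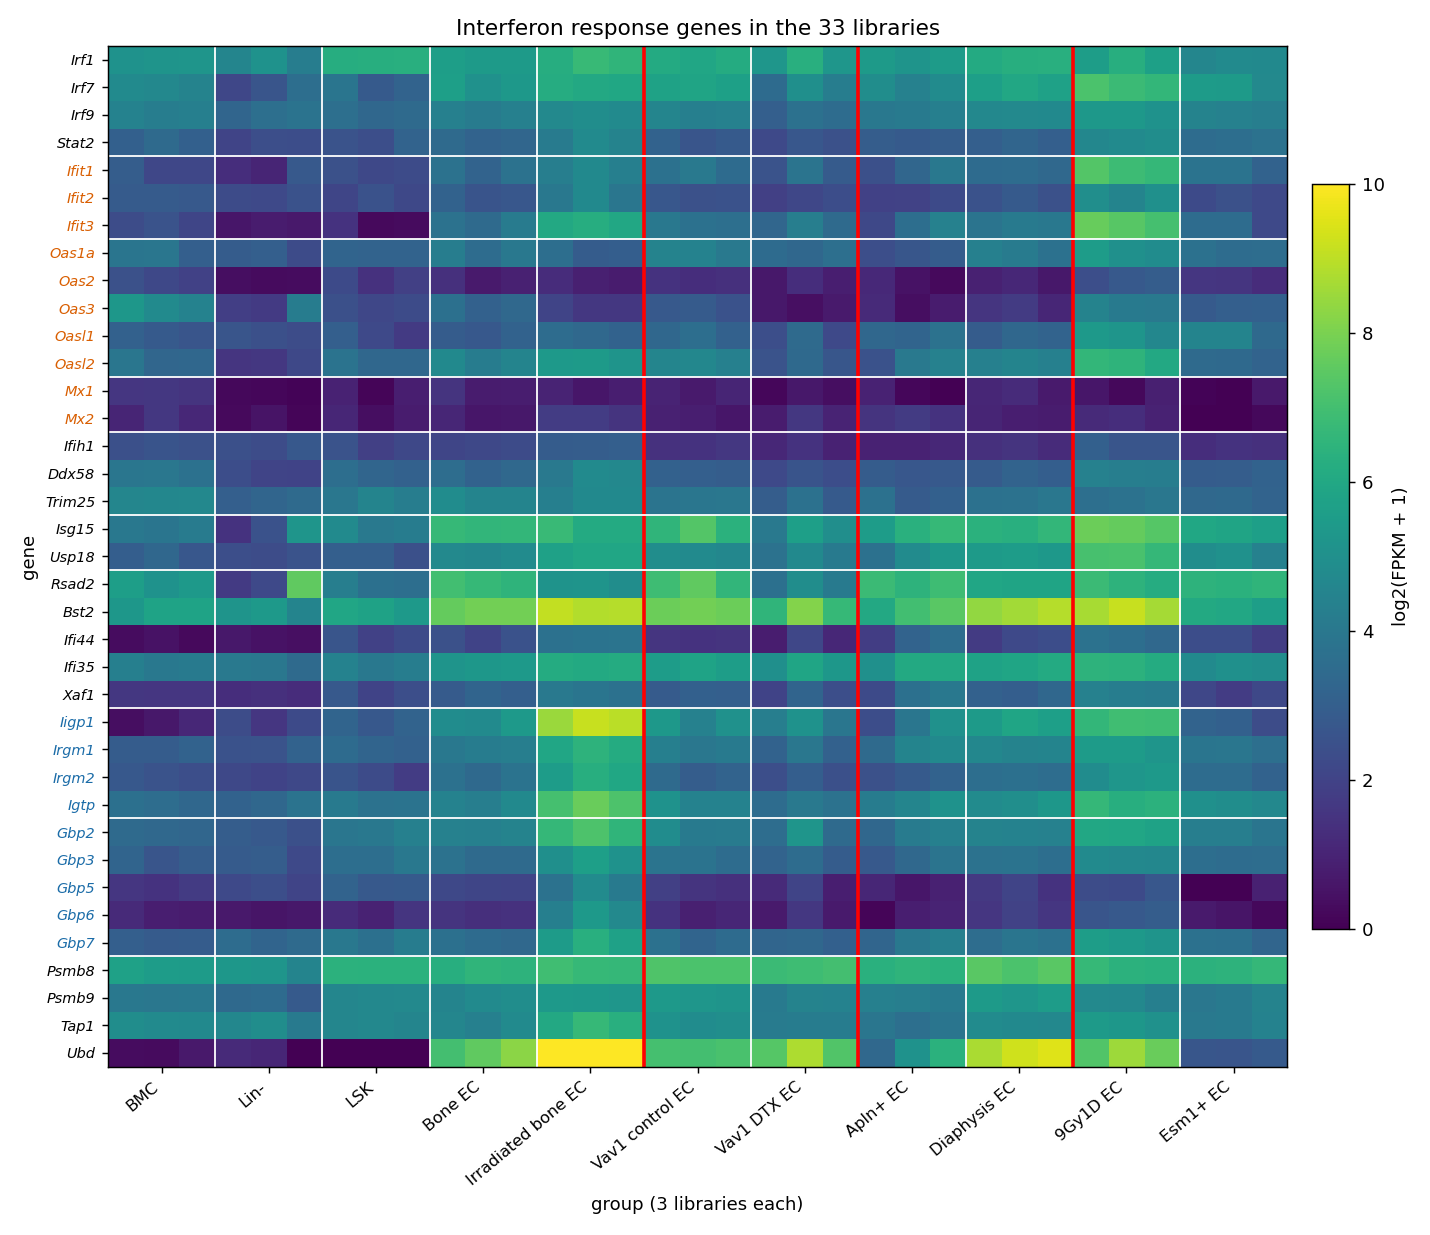
Level of each of the 37 members in each of the 33 libraries, as colour on a log2(FPKM + 1) scale from 0 to 10, with members ordered by role (orange names antiviral, blue names GTPases) and red lines between tables that were normalized separately. By group mean, the GTPases are highest in irradiated bone EC and the Ifit genes in 9Gy1D EC, with overlap between these groups for Gbp7 and Ifit2.

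The libraries held from about 1550000 reads (an LSK library) to 12290000 reads (a Vav1 DTX EC library), as recovered from the steps in the FPKM values. The 10 pan-endothelial markers summed to 1004 to 5726 FPKM in the 8 endothelial groups and to 18.8 to 96.5 FPKM in the 3 blood groups. The sorted endothelial groups also held RNA of other cells: the 8 neutrophil markers summed to 25851 to 135022 FPKM in those groups except irradiated bone EC, where they summed to 933 to 4291 FPKM. Within groups, Lin- replicate 3, Vav1 DTX EC replicate 2 and Apln+ EC replicate 1 stood apart from the other 2 libraries, whereas Esm1+ EC replicates 1 and 2 differed by little more than sampling noise (chi-square per degree of freedom 1.386, against 26.969 and 28.533 for the other pairs of that group). In bulk RNA, a lower level in each cell and fewer cells of a type cannot be told apart. BMC and Lin- libraries were made with another kit than the rest, and kit and population cannot be told apart.

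In irradiated bone EC, interferon response genes were higher than in bone EC, and the GTPases differed most. Of 35 members tested, 28 rose and 3 fell, with a median log2 difference of 1.12, against 0.06 over all 13044 genes tested. Of all genes tested, 41.9% passed the threshold (22.5% higher and 19.4% lower; limma on log2(FPKM + 1), adjusted p below 0.05). All 9 GTPases rose, with a median of 2.33, while 5 of 8 antiviral genes tested rose and 2 fell, with a median of 0.87. Relative to the 10 pan-endothelial markers, which rose as well, 8 of 9 GTPases were called higher (median 1.10), whereas of the antiviral genes 1, Ifit3, was called higher and 3 were called lower (median -0.35). That scale was chosen after seeing the data.

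Iigp1, an IRG GTPase that acts on the vacuoles of intracellular pathogens, read 362, 570 and 492 FPKM in the irradiated libraries and 28.5, 26.9 and 40.9 FPKM in bone EC. The lowest irradiated library lay far above the highest untreated one. The means were 475 ± 105 and 32.1 ± 7.65 FPKM (SD, n = 3), a 14.8-fold difference, with a log2 difference of 3.85 ± 0.23 (SE; limma adjusted p = 0.00016). Igtp, also named Irgm3 and a regulator of the other IRG proteins, read 132, 211 and 146 FPKM against 20.4, 18.6 and 25.6 FPKM (7.57-fold; log2 difference 2.85, limma adjusted p = 0.00025). The regulators Irgm1 and Irgm2 rose 4.28-fold and 5.18-fold, from 15.2 to 18.2 FPKM and 9.66 to 13 FPKM in bone EC to 59.1 to 88.2 FPKM and 45.1 to 75.2 FPKM. Igtp and Irgm2 overlap on the same strand of chromosome 11, so some of their reads may have been assigned to either gene.

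Among the guanylate-binding proteins, which coat and help lyse intracellular bacteria and vacuoles, Gbp6 rose most. It read 19.1, 41.0 and 25.3 FPKM after irradiation and 1.84, 1.52 and 1.66 FPKM without it (17.0-fold; log2 difference 3.40, limma adjusted p = 0.00025). Gbp2 read 98.8, 147 and 91.7 FPKM against 19.9, 19.5 and 21.5 FPKM, a 5.55-fold difference. Gbp7 rose 5.55-fold, Gbp5, a GBP linked to inflammasome assembly, 5.67-fold, and Gbp3 3.46-fold, the smallest difference among the 9 GTPases. In none of the 9 did the groups overlap, as was so for 54.2% of all genes tested. Replicate 2 was the highest irradiated library for 9 of 9 GTPases and replicate 1 the lowest for 8 of 9. The Gbp genes lie in clusters of close paralogs, and how the authors' counting split shared reads is not given in the sources used here.

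The antiviral genes moved in different directions. Ifit3, whose protein pairs with other IFIT proteins that bind viral RNA, read 65.4, 74.4 and 62.7 FPKM after irradiation and 12.8, 9.93 and 16.9 FPKM in bone EC, with no overlap (5.10-fold; log2 difference 2.29 ± 0.20, SE; limma adjusted p = 0.0003). Ifit2 rose 2.98-fold, from 5.0 to 7.94 FPKM to 14.3 to 26.1 FPKM, and Ifit1 1.90-fold, from 8.00 to 12.7 FPKM to 18.2 to 26.1 FPKM. Oasl2, an OAS-like gene, read 41.4, 42.4 and 35.5 FPKM against 25.7, 17.4 and 22.0 FPKM (log2 difference 0.86, limma adjusted p = 0.0064).

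Oas3, a synthetase of the 2-5A messenger that activates RNase L, fell. Its irradiated libraries read 3.14, 2.08 and 2.04 FPKM and the bone EC libraries 11.9, 7.69 and 9.33 FPKM, without overlap (3.99-fold lower; log2 difference -1.64 ± 0.21, SE; limma adjusted p = 0.00099). Oas1a, another 2-5A synthetase gene, fell less, with 11.2, 6.42 and 7.02 FPKM against 17.7, 10.6 and 15.1 FPKM. These groups overlapped (log2 difference -0.75, limma adjusted p = 0.047), and the call was lost under 7 of 16 alternatives: as TPM, with a pseudocount of 0.1, without a filter, and without irradiated replicate 2 or 3 or bone EC replicate 1 or 3 (limma adjusted p from 0.00089 to 0.14 over the 16). Oasl1, a regulator of Irf7 translation, did not pass the threshold (7.96 to 10.7 against 5.77 to 7.82 FPKM; log2 difference 0.43, limma adjusted p = 0.079). Oas2 and Mx1 were below the level needed for a test, with at most 1.80 FPKM in any of the 6 libraries. Mx2, annotated as a polymorphic pseudogene in the mouse reference, rose from 0.541 to 1.13 FPKM to 1.82 to 2.44 FPKM.

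**Figure D2:**
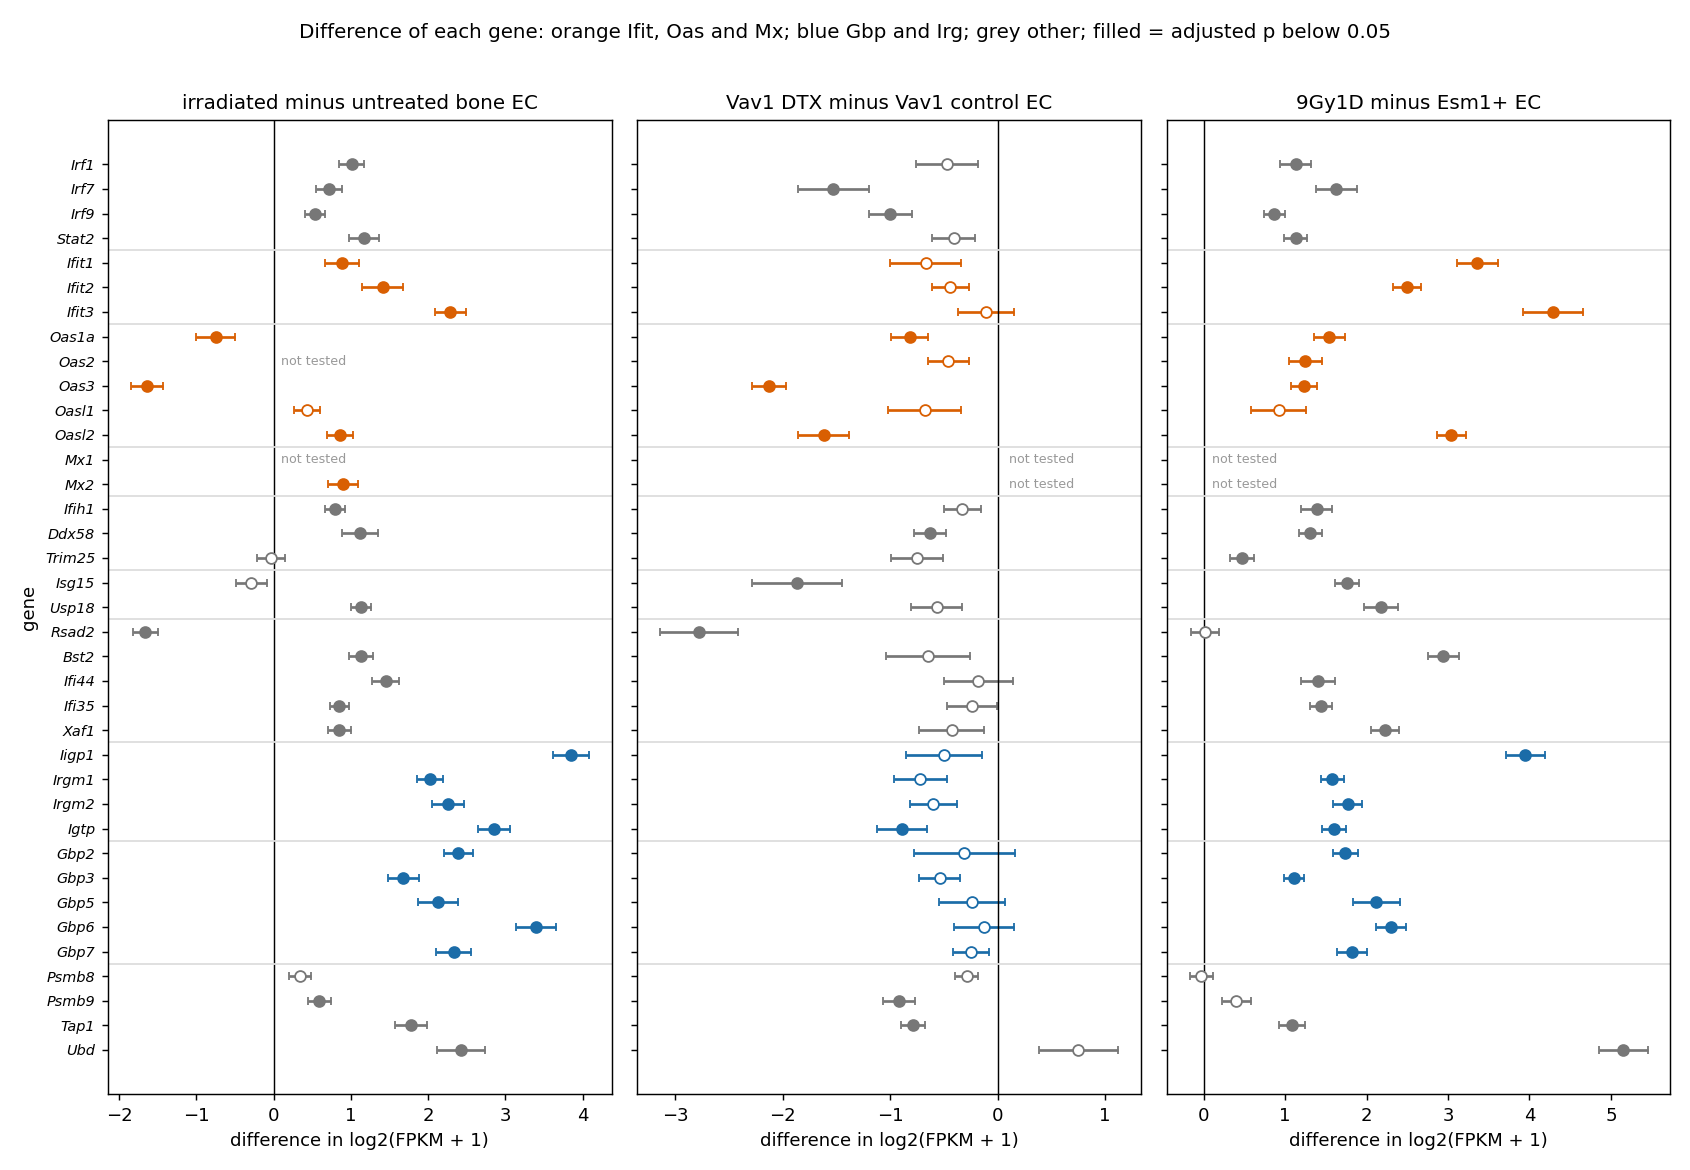
Log2 difference (log2(FPKM + 1) scale) with its standard error for each member tested, for irradiated against untreated bone EC (left), for the DTX against the control group of Vav1 (middle), and for 9Gy1D against Esm1+ EC (right), with filled points where the limma adjusted p was below 0.05. The GTPases run from 1.68 to 3.85 in the first comparison, and most members lie below 0 in the second.

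The remaining 18 members rose in 14 cases and fell in 1. Transcription factor genes rose modestly: Irf1, the factor induced by interferon gamma, read 74.0, 107 and 93.2 FPKM against 47.7, 42.6 and 42.8 FPKM (2.06-fold), and Stat2, the type I interferon mediator, 16.9, 26.8 and 21.5 FPKM against 10, 8.03 and 8.90 FPKM (2.42-fold). Irf7, which amplifies type I interferon production, rose 1.64-fold and Irf9, the DNA-binding partner of STAT2, by 0.53 on the log2 scale. None of these 4 overlapped between groups, as was so for 54.2% of all genes tested. Relative to the pan-endothelial markers, Irf1, Stat2, Irf7 and Irf9 differed by -0.25, -0.02, -0.54 and -0.69. On that scale only Irf9 among them was called, as lower (limma adjusted p = 0.0098). Of the RNA sensors, Ddx58 (RIG-I) and Ifih1 (MDA5) rose by 1.12 and 0.79, and Trim25, a ubiquitin ligase that acts on RIG-I, showed 19.1 to 26.0 against 21.6 to 28.4 FPKM (log2 difference -0.03, limma adjusted p = 0.92).

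Rsad2, which encodes the antiviral enzyme viperin, fell against the direction of most members. It read 34.3, 35.5 and 28.8 FPKM after irradiation and 125, 103 and 90.7 FPKM in bone EC (3.23-fold lower; log2 difference -1.66 ± 0.16, SE; limma adjusted p = 0.00044). Every irradiated library lay below every bone EC library. Isg15, a ubiquitin-like protein, read 109, 69.0 and 67.6 FPKM against 103, 94.3 and 96.2 FPKM and did not pass (log2 difference -0.29, limma adjusted p = 0.29), while Usp18, the protease that removes ISG15 and dampens interferon receptor signalling, rose 2.23-fold, from 23.8 to 27.6 to 51.4 to 60.2 FPKM. Bst2 (tetherin), which holds budding virus at the cell surface, rose from 197, 235 and 236 FPKM to 542, 457 and 470 FPKM (log2 difference 1.13, limma adjusted p = 0.0014). Ifi44, Ifi35 and Xaf1 rose by 1.45, 0.85 and 0.85.

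Antigen-processing members included the highest level of any member. Ubd (FAT10), a ubiquitin-like protein induced by interferon gamma and TNF, read 1029, 1143 and 1020 FPKM after irradiation and 129, 188 and 310 FPKM in bone EC (5.09-fold; log2 difference 2.43 ± 0.31, SE; limma adjusted p = 0.00098). The bone EC libraries spread widely, yet none reached the irradiated ones. Tap1, a subunit of the peptide transporter, rose 3.58-fold, from 19.5 to 26.3 FPKM to 64.0 to 104 FPKM. The immunoproteasome subunit Psmb9 rose by 0.59 on the log2 scale, and Psmb8 read 99.3 to 122 against 76.8 to 92.6 FPKM (log2 difference 0.34, limma adjusted p = 0.097).

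**Figure D3:**
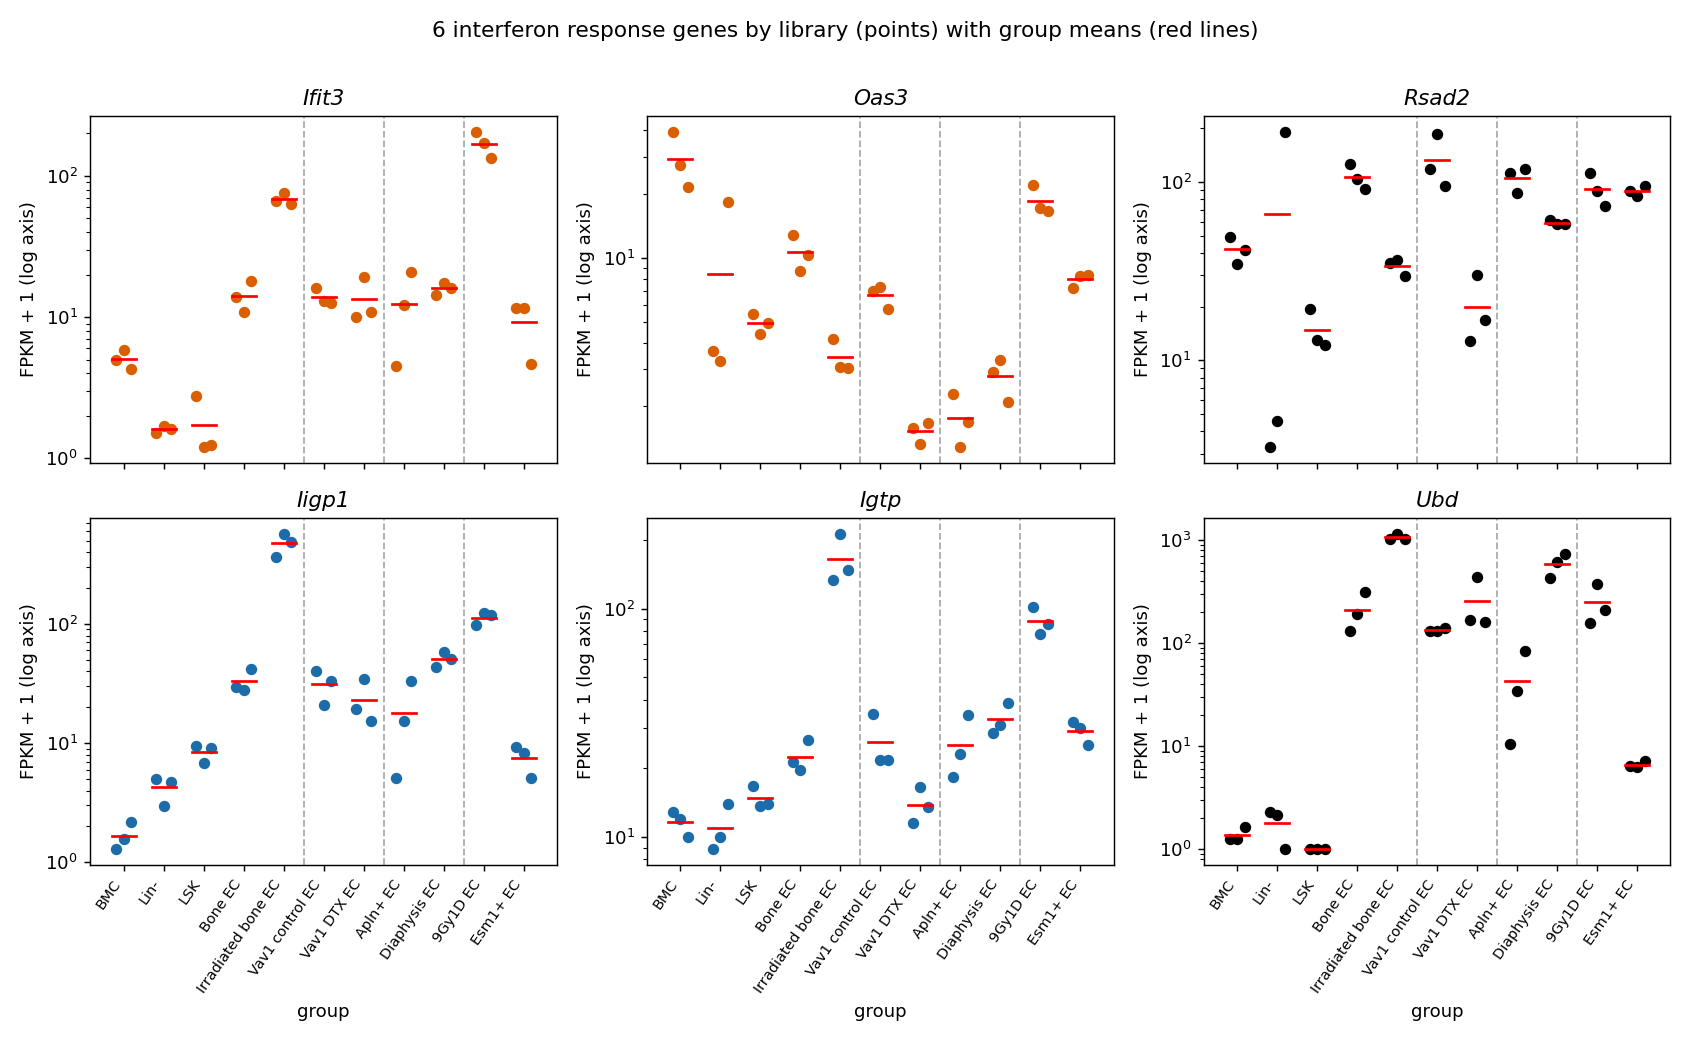
FPKM + 1 on a log axis for Ifit3, Oas3, Rsad2, Iigp1, Igtp and Ubd in every library (points) with group means (red lines) and dashed lines between tables that were normalized separately. Iigp1 stands at 362 to 570 FPKM in irradiated bone EC, whereas Oas3 and Rsad2 are lower there than in bone EC.

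Upstream genes of the pathway also moved. Of 37 pathway genes listed, 28 were tested, 12 rose and 5 fell (median 0.45). The interferon gamma receptor subunit Ifngr1 rose from 103 ± 6.61 to 228 ± 21.5 FPKM (SD, n = 3; limma adjusted p = 0.00083). Its log2 difference of 1.14 was close to the median of the pan-endothelial markers, 1.18. The other subunit of that receptor, Ifngr2, had means of 34.4 against 36.3 FPKM, and of 6 receptor genes tested 1 rose and 1 fell. The type I receptor genes Ifnar1 and Ifnar2 did not pass, with means of 14.5 against 16.0 FPKM and 58.6 against 54.9 FPKM. Of 9 ligand genes only Ifng was high enough to test (1.13 against 0.607 FPKM; log2 difference 0.47, limma adjusted p = 0.22), and Ifnb1 was listed at 0 in all 6 libraries. Of 14 further MHC genes 6 rose and 4 fell: class I pathway genes such as Tap2 (1.51) rose, and the class II genes H2-Eb1 (-1.95), H2-Aa (-1.88) and H2-Ab1 (-1.53) fell. Of 24 other interferon-stimulated genes tested, 17 rose and 3 fell (median 1.10). Gbp4 and Tgtp1, both interferon-induced GTPases, rose 14.1-fold and 11.4-fold, and Isg20, an RNA exonuclease, fell from 84.4 to 8.66 FPKM on average.

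The cellular make-up of the sort moved with these results. All 10 pan-endothelial markers rose (median 1.18; sums 4273 to 5726 against 1490 to 1942 FPKM). All 8 neutrophil, 6 B lymphoid, 6 erythroid and 4 pan-leukocyte markers fell, with erythroid sums of 311 to 928 against 41365 to 44893 FPKM and neutrophil sums of 933 to 4291 against 44051 to 44912 FPKM. Monocyte and macrophage markers fell in 5 of 9 tested (325 to 790 against 1246 to 1375 FPKM) and plasmacytoid dendritic markers in 5 of 7, with 1 higher (33.9 to 147 against 154 to 245 FPKM). T and NK markers rose in 5 of 9 tested and fell in 1 (64.1 to 126 against 80.3 to 97.0 FPKM). No marker in these lists was at 0 in every library of a group. With each library scaled to its pan-endothelial markers, 11 members were called higher and 9 lower (median -0.12), and Gbp3 was the GTPase that no longer passed (0.46). The part of the blood-cell lists in these differences was not tested.

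Vav1 DTX EC showed lower levels of several members than Vav1 control EC. Of 35 tested, 11 fell and none rose (limma on log2(FPKM + 1)), with a median of -0.57 against 0.03 over all 11664 genes. Of all genes, 26.3% passed (11.3% higher, 15.0% lower). Antiviral genes fell in 3 of 8 tested (median -0.67) and GTPases in 1 of 9 (median -0.50). Among the antiviral genes, Oas3 passed the filter on low values only through the control libraries, so it could be called only lower.

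Oas3 read 0.576, 0.332 and 0.672 FPKM in the DTX libraries and 5.97, 6.34 and 4.73 FPKM in the controls (10.8-fold lower; log2 difference -2.13 ± 0.16, SE; limma adjusted p = 0.00025). Rsad2 read 11.9, 28.9 and 15.9 FPKM against 118, 185 and 94.3 FPKM (7.0-fold lower; log2 difference -2.78 ± 0.36, SE; limma adjusted p = 0.0019). Both genes were separated completely between the groups, as were 46.3% of all genes tested, and both had also fallen in irradiated bone EC. Oasl2 fell from 19.2 to 23.7 FPKM to 4.87 to 9.68 FPKM, and Oas1a from 15.3 to 21.2 FPKM to 9.06 to 11.5 FPKM. Isg15 read 15.4, 49.4 and 29.7 FPKM against 91.8, 159 and 82.8 FPKM (3.52-fold lower, limma adjusted p = 0.018).

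Irf7 fell 2.73-fold (10.3, 30.3 and 17.7 against 52.6, 56.6 and 50.3 FPKM) and Irf9 by 1.0 on the log2 scale. Ddx58, Tap1 and Psmb9 fell by 0.63, 0.79 and 0.92. Psmb9 and Tap1 overlap on opposite strands of chromosome 17, so part of their reads may be shared. Igtp was the only GTPase called, at 10.5, 15.6 and 12.6 FPKM against 33.6, 20.7 and 20.7 FPKM (log2 difference -0.89, limma adjusted p = 0.029). That call was lost under 9 of 15 alternatives, among them TPM, the replicate block, the pan-endothelial scaling and leaving out any single library but DTX replicate 2 (limma adjusted p from 0.0093 to 0.088 over the 15), and the call of Ddx58 under 8 of 15 (0.0041 to 0.11). Ubd went the other way in each DTX library, with 165, 437 and 157 FPKM against 130, 129 and 139 FPKM, and did not pass (log2 difference 0.75, limma adjusted p = 0.18). The Ifit genes did not pass either, with Ifit3 at 8.97, 18.4 and 9.96 against 15.1, 12.1 and 11.5 FPKM.

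DTX replicate 2 was the highest of the 3 DTX libraries for 33 of 37 members and for 9 of 9 GTPases: Iigp1 read 18.2, 33.5 and 14.3 FPKM across the DTX libraries against 39.7, 20 and 32.2 FPKM in the controls, and Gbp2 10.9, 35.8 and 9.90 against 28.2, 16.2 and 17.1 FPKM. Its pan-endothelial sum was 2932 FPKM, against 1490 and 1303 FPKM in the other DTX libraries and 1397 to 1724 FPKM in the controls. Without that library 29 members were called lower and 1, Ubd, higher. Without control replicate 1, 2 or 3 the members called lower numbered 4, 5 and 6, and Oas3, which passed the filter on low values only through the 3 control libraries, was then not tested.

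Blood-cell and stromal markers moved with this comparison as well. Plasmacytoid dendritic markers fell in 6 of 7 (19.1 to 41.4 against 178 to 190 FPKM), monocyte and macrophage markers in 8 of 9 (640 to 967 against 1778 to 1848 FPKM), T and NK markers in 7 of 9 tested, and all 6 B lymphoid, 6 erythroid and 4 perivascular stromal markers fell. Erythroid sums were 1643 to 3142 against 43310 to 82002 FPKM. The 10 pan-endothelial markers did not pass in either direction, and 1 of 8 neutrophil markers fell. No marker was at 0 in every library of either group. Of 27 pathway genes tested 9 fell and 2 rose. Of 21 other interferon-stimulated genes 7 fell, led by Isg20 (15.6 against 140 FPKM), and of 13 MHC genes 6 fell, led by Cd74, the class II invariant chain (-3.25). The part of these cell types in the members' differences was not tested.

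In Apln+ EC, antigen-processing members were lower than in diaphysis EC. Of 35 members tested, 8 fell and 1 rose (limma on log2(FPKM + 1)), with a median of -0.57 against 0.04 over all 11889 genes, of which 7.49% passed (2.84% higher, 4.64% lower). Ubd read 9.49, 33.3 and 82.0 FPKM in Apln+ EC and 423, 614 and 726 FPKM in diaphysis EC (14.1-fold lower; log2 difference -4.21 ± 0.71, SE; limma adjusted p = 0.019). The groups did not overlap, which held for 27.8% of all genes tested, although the Apln+ libraries themselves spread widely. Psmb8, Psmb9 and Tap1 fell by 0.93, 1.17 and 0.91, so all 4 antigen-processing members were called lower. Bst2 read 64.9, 126 and 173 FPKM against 336, 387 and 474 FPKM (log2 difference -1.81, limma adjusted p = 0.035).

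The transcription factor genes Irf1 (42.9, 35.2 and 44.5 against 67.5, 76.7 and 78.2 FPKM) and Irf7 (28.7, 19.8 and 27.1 against 49.5, 62.1 and 52.1 FPKM) fell by 0.85 and 1.10. Oas1a was the only antiviral gene of 8 tested that fell, with 4.27, 5.31 and 6.57 against 19.4, 16.9 and 12.2 FPKM. No GTPase of 9 passed: Iigp1 read 4.14, 14.4 and 32.1 FPKM against 42.4, 57.2 and 49.6 FPKM (log2 difference -1.87, limma adjusted p = 0.15). Rsad2 was the only member that rose, with 111, 86.2 and 117 FPKM against 60.2, 56.8 and 56.9 FPKM (1.81-fold, limma adjusted p = 0.032). Apln+ replicate 1 was the lowest Apln+ library for 8 of 9 GTPases and had a pan-endothelial sum of 1190 FPKM against 4939 and 5611 FPKM. Without it 15 members were called lower and 4 higher, and without diaphysis replicate 1 no member was called. Without any other single library at most 4 members were called lower. Perivascular stromal markers fell in 4 of 4, plasmacytoid dendritic markers in 6 of 7 (78.5 to 84.5 against 297 to 406 FPKM) and macrophage and monocyte markers in 6 of 9, while no pan-endothelial marker passed and no marker was at 0 in every library of a group. Their part in the members' differences was not tested.

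In 9Gy1D EC, nearly all members were higher than in Esm1+ EC, and the Ifit genes were among those that differed most. Of 35 tested, 31 rose and none fell (limma on log2(FPKM + 1)), with a median of 1.58 against 0 over all 11746 genes, of which 43.7% passed (20.6% higher, 23.1% lower). Antiviral genes rose in 7 of 8 tested (median 2.02) and GTPases in 9 of 9 (median 1.77). Of these GTPases, Gbp5 and Gbp6 passed the filter on low values only through the 9Gy1D libraries, so they could be called only higher. Relative to the pan-endothelial markers, 4 antiviral genes, the 3 Ifit genes and Oasl2, and 3 GTPases were called higher, none of either family was called lower, and the medians were 0.55 and 0.24. With the near-identical Esm1+ replicates 1 and 2 averaged into 1 library, an alternative chosen after seeing the data, 30 rose and none fell.

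Ifit3 read 204, 169 and 132 FPKM against 10.6, 10.6 and 3.63 FPKM (20.3-fold; log2 difference 4.29 ± 0.37, SE; limma adjusted p = 0.00024). Ifit1, which binds viral RNA caps, read 160, 114 and 99.5 FPKM against 13, 12.9 and 7.77 FPKM (11.1-fold), and Ifit2 29.4, 21.9 and 31.1 against 3.78, 4.53 and 3.65 FPKM (6.90-fold). In each case the groups were far apart. Oasl2 rose 9.13-fold (98.4, 90.4 and 65.4 against 10.1, 9.64 and 8.09 FPKM; limma adjusted p = 6e-05).

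Oas3, which fell in irradiated bone EC, rose here from 6.21, 7.23 and 7.35 FPKM to 21.0, 16.3 and 15.6 FPKM (log2 difference 1.23, limma adjusted p = 0.0012), although relative to the pan-endothelial markers it differed by -0.25. Oas1a and Oas2 rose by 1.54 and 1.25, and Oasl1 was separated between the groups but did not pass (40.5, 36.2 and 24.0 against 22.0, 22.1 and 9.76 FPKM; limma adjusted p = 0.061). Mx1 and Mx2 were too low to test, with at most 1.46 FPKM in any library. Isg15 read 212, 198 and 162 FPKM against 61.6, 56.7 and 48.8 FPKM (3.43-fold). Rsad2 read 112, 87.7 and 72.0 against 88.1, 82.3 and 93.4 FPKM and did not pass (log2 difference 0.02, limma adjusted p = 0.93).

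Among the GTPases, Iigp1 read 96.5, 122 and 118 FPKM against 8.20, 7.29 and 4.06 FPKM (17.2-fold; log2 difference 3.95 ± 0.24, SE; limma adjusted p = 6.1e-05). Gbp6 read 5.26, 5.93 and 6.66 FPKM against 0.629, 0.485 and 0.160 FPKM, and Gbp5 3.98, 3.70 and 5.54 FPKM against 0, 0 and 0.866 FPKM. Igtp rose 3.11-fold, Irgm1 3.14-fold, Irgm2 3.66-fold, Gbp2 3.47-fold and Gbp7 3.76-fold, and Gbp3 2.27-fold, the smallest of the 9. All 9 were separated between the groups, as were 57.3% of all genes tested.

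Of the remaining 18 members 15 rose and none fell. Ubd read 155, 375 and 210 FPKM against 5.37, 5.19 and 6.06 FPKM (44.5-fold; log2 difference 5.15 ± 0.30, SE; limma adjusted p = 5.4e-05). Bst2 rose 7.85-fold, from 48.1 to 65.8 FPKM to 400 to 576 FPKM, Usp18 4.62-fold and Xaf1 5.83-fold. Irf7 read 141, 111 and 97.6 FPKM against 44.5, 43.1 and 25.1 FPKM (3.10-fold). The immunoproteasome genes did not pass: Psmb8 read 103, 85.7 and 80.3 against 85.1, 88.1 and 101 FPKM, and the log2 difference of Psmb9 was 0.40 (limma adjusted p = 0.11).

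Of 10 pan-endothelial markers 9 rose here as well (sums 3613 to 5172 against 1004 to 1918 FPKM), with 3 of 4 perivascular markers, and 6 of 8 neutrophil, 6 of 6 B lymphoid, 3 of 6 erythroid, 3 of 9 T and NK and 4 of 4 pan-leukocyte markers fell. Of 6 plasmacytoid dendritic markers tested 4 fell and 1 rose, and Klk1 of that list was at 0 in all 9Gy1D libraries. Of 9 monocyte and macrophage markers 4 rose and 3 fell (sums 450 to 955 against 789 to 987 FPKM): the complement genes C1qa, C1qb (165 against 46.5 FPKM on average) and C1qc rose with Fcgr1, and Csf1r, Ly6c2 and Ccr2 fell. Scaled to the pan-endothelial markers, 10 members were called higher and 4 lower. Of 27 pathway genes 13 rose and 5 fell, with Ifngr1 2.37-fold higher and Ifngr2 at 36.3 against 45.6 FPKM on average. Of 23 other interferon-stimulated genes 19 rose and 1 fell. The part of cell make-up in these differences was not tested.

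**Figure D4:**
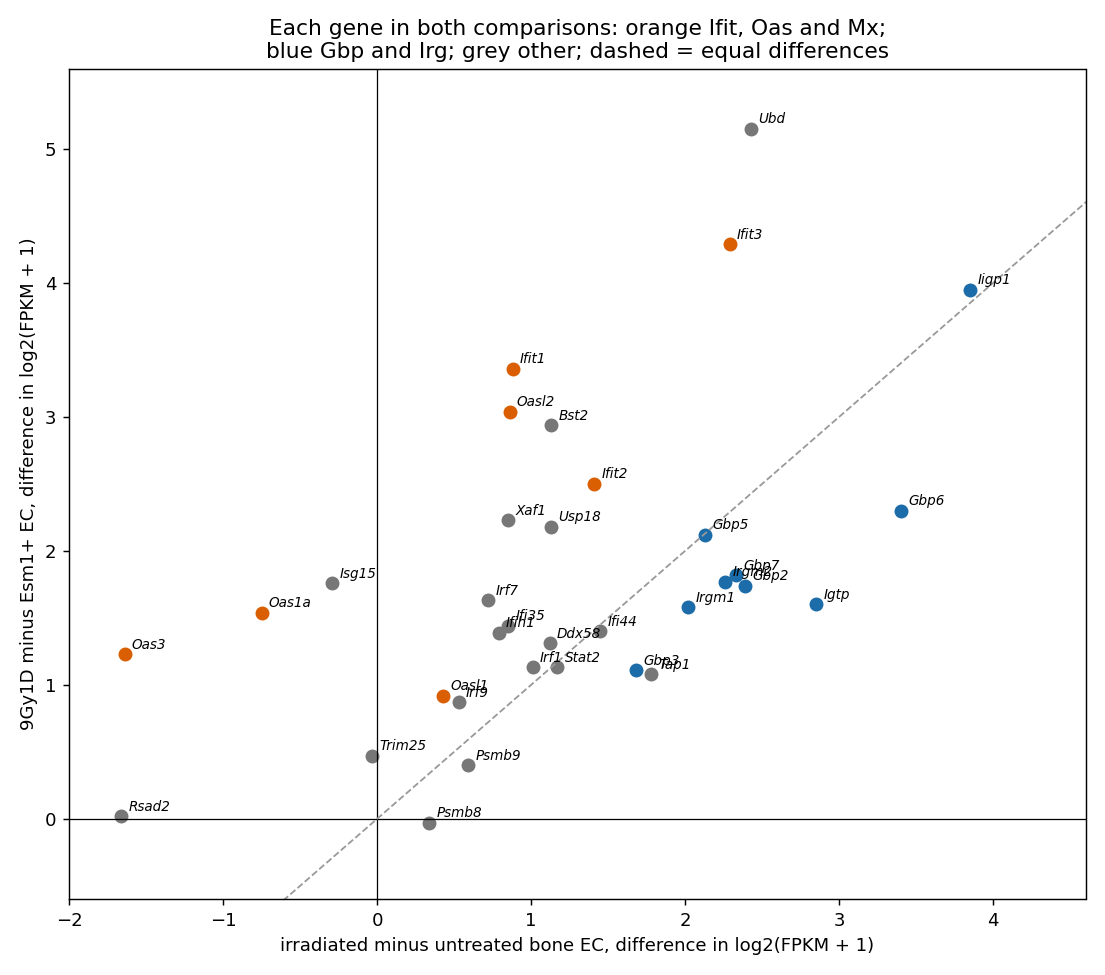
Log2 difference of each member tested in both comparisons, in irradiated bone EC against bone EC (horizontal) and in 9Gy1D EC against Esm1+ EC (vertical), coloured by family. The 7 antiviral genes lie above the line of equal differences and 8 of 9 GTPases below it.

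These 2 comparisons share no library, and their tables were normalized separately. Of the 34 members tested in both, 7 of 7 antiviral genes had the larger log2 difference in 9Gy1D against Esm1+ EC, and 8 of 9 GTPases the larger one in irradiated against bone EC. Iigp1 was the exception, at 3.95 against 3.85. Ifit1 differed by 3.36 in the first and 0.88 in the second, Oas3 by 1.23 and -1.64, and Gbp2 by 1.74 and 2.39. Whether the comparisons differ was not tested, and genotype, sort gate and tamoxifen cannot be told apart from irradiation in the 9Gy1D comparison.

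The balance between families can be read within each library, where scaling of the whole library has little bearing. The mean log2(FPKM + 1) of the 9 GTPases exceeded that of the 10 antiviral genes by 2.94 ± 0.41 in irradiated bone EC (SD, n = 3; 2.50 to 3.32). In bone EC it did so by 0.82 ± 0.21 (0.59 to 1.0), and in 9Gy1D EC and Esm1+ EC by 0.56 ± 0.16 and 0.51 ± 0.04. The 3 irradiated libraries thus lay above every bone EC library in this difference, while 9Gy1D and Esm1+ EC overlapped. With 3 against 3 libraries an exact permutation test cannot go below p = 0.1. In BMC the difference was -0.34 ± 0.22, the only group in which the antiviral mean was the higher. The cellular make-up of the libraries differed too, with neutrophil sums of 933 to 4291 FPKM in irradiated bone EC and 44051 to 44912 FPKM in bone EC. The part of cell make-up in this balance was not tested.

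**Figure D5:**
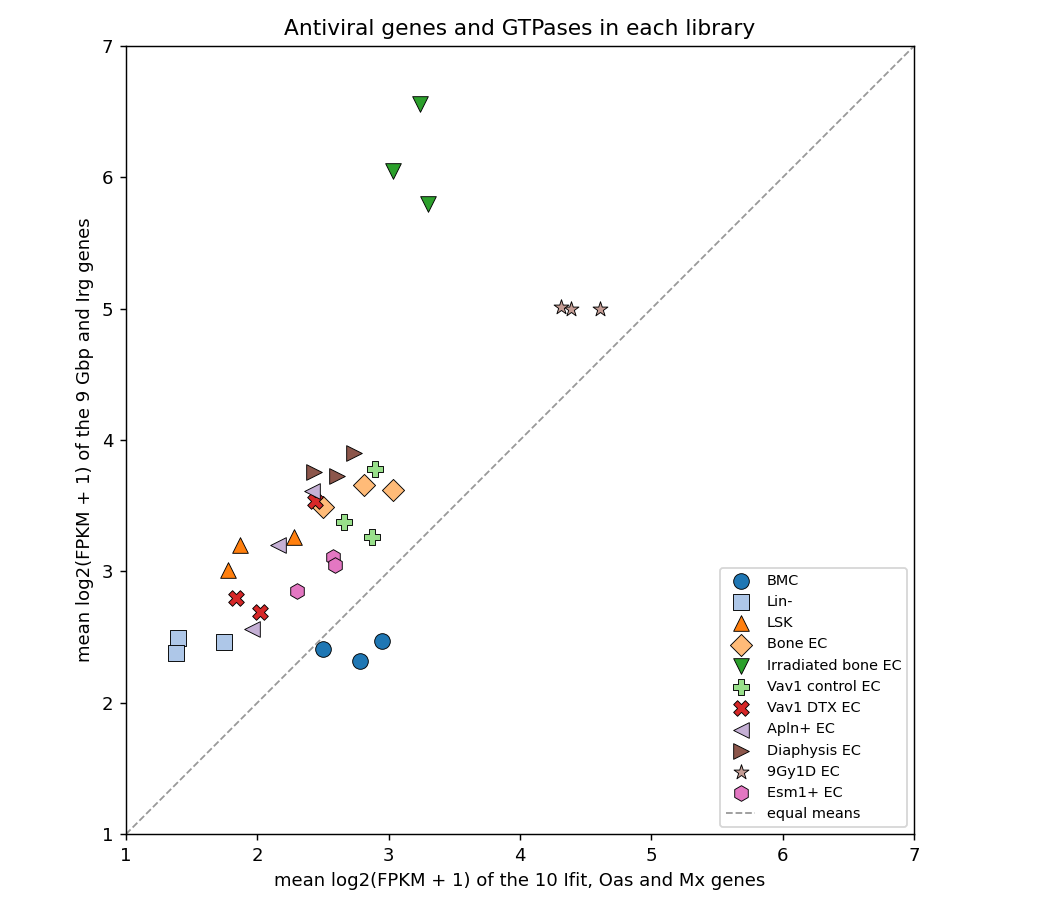
Mean log2(FPKM + 1) of the 10 antiviral genes and of the 9 GTPases in every library, by group. The GTPase mean is 6.13 ± 0.39 in irradiated bone EC (SD, n = 3) against 3.59 in bone EC, and the antiviral mean is 4.44 in 9Gy1D EC against 2.49 in Esm1+ EC.

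Bone EC carried more of most members than Lin- cells and whole marrow did, whereas against LSK cells the balance depended on the scale. The bone EC libraries serve in all 3 of these comparisons and in that with irradiated cells, so these are not independent. Against LSK cells, 20 of 35 members tested were higher and 4 lower (median 0.63 against -0.05 over all genes; 60.1% of genes passed), but as TPM 11 were higher and 11 lower. Against Lin- cells, 27 of 34 were higher and none lower (median 1.42 against 0.07; 66.6% passed), and against BMC, 24 of 37 were higher and 5 lower (median 0.70 against 0; 70.4% passed; limma on log2(FPKM + 1) throughout). Of all genes tested, 29.5% were higher in bone EC against LSK cells, 35.8% against Lin- cells and 35.8% against BMC. Some members passed the filter on low values only through the bone EC libraries, so they could be called only higher. These were Ubd against LSK cells, Gbp6, Ifi44 and Ifit3 against Lin- cells, and Ifi44 and Ubd against BMC. Markers of many cell types moved with the counts of members. All 10 pan-endothelial markers were higher in bone EC in each comparison. Against LSK cells, so were 8 of 8 neutrophil, 9 of 9 monocyte and macrophage, 6 of 6 B lymphoid, 6 of 6 erythroid, 4 of 4 pan-leukocyte, 6 of 7 plasmacytoid dendritic and 5 of 8 T and NK markers tested, with neutrophil sums of 44051 to 44912 FPKM in bone EC and 292 to 335 FPKM in LSK. Against Lin- cells the neutrophil, monocyte and macrophage, B lymphoid, pan-leukocyte and plasmacytoid dendritic markers were all higher in bone EC, with 6 of 8 T and NK markers tested, while 1 of 6 erythroid markers was lower and none higher. Against BMC, 6 of 6 erythroid, 4 of 4 perivascular stromal, 6 of 7 plasmacytoid dendritic and 5 of 9 monocyte and macrophage markers were higher in bone EC, and 6 of 8 neutrophil, 4 of 6 B lymphoid, 5 of 10 T and NK and 3 of 4 pan-leukocyte markers were lower. Their part in the members' differences was not tested.

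Ubd and Iigp1 showed the widest gaps. Ubd, at 209 ± 92.5 FPKM in bone EC (SD, n = 3), was listed at 0 in all 3 LSK libraries, where 3 reads would correspond to 1.16 to 1.41 FPKM, which makes it at least 149-fold higher in bone EC. It read 1.26, 1.11 and 0 FPKM in Lin- cells and 0.248, 0.235 and 0.620 FPKM in BMC. Iigp1 read 8.39, 5.79 and 8.18 FPKM in LSK, 4.04, 1.99 and 3.73 FPKM in Lin- and 0.295, 0.560 and 1.17 FPKM in BMC, so the whole marrow had the least and bone EC 47.5-fold more (log2 difference 4.31, limma adjusted p = 3.1e-06). Ifit3 was 18.1-fold higher in bone EC than in LSK (1.75, 0.207 and 0.236 FPKM) and 21.9-fold higher than in Lin- (0.504, 0.692 and 0.618 FPKM).

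Not every member followed. Irf1 was lower in bone EC than in LSK (47.7, 42.6 and 42.8 against 73.6, 76.6 and 78.8 FPKM; log2 difference -0.77, limma adjusted p = 0.00046). The IRG GTPases were higher in bone EC than in LSK in 4 of 4, although as TPM Igtp differed by -0.07, whereas of 5 GBP genes none was higher and Gbp5 (8.09, 5.98 and 6.14 FPKM in LSK) and Gbp7 (15.2, 11.8 and 17.2 FPKM) were lower in bone EC. Against BMC, all 9 GTPases were higher in bone EC, but of 10 antiviral genes 3 were higher and 3 lower. Oas3 was among the lower ones, with 38.3, 26.4 and 20.5 FPKM in BMC (log2 difference -1.44, limma adjusted p = 0.0011), and Oas2 and Mx1 were the others (-1.19 and -0.55).

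Lin- cells held less antiviral message than whole marrow. Of 34 members tested, 17 fell and 3 rose (limma on log2(FPKM + 1)), with a median of -0.63 against 0.03 over all genes. Of all genes, 57.5% passed (29.1% higher, 28.4% lower). Antiviral genes fell in 8 of 10, with a median of -1.19. Of these 8, Ifit3, Mx1, Mx2 and Oas2 passed the filter on low values only through the BMC libraries, so they could be called only lower. Oas2 read 0.296, 0.233 and 0.242 FPKM against 4.61, 3.48 and 2.81 FPKM, with a wide gap between the groups. Of 8 GTPases tested 3 rose, Iigp1 (1.34), Gbp5 (0.63) and Gbp7 (0.46), and 2 fell. Lin- replicate 3 differed from the other 2: Rsad2 read 2.27, 3.59 and 190 FPKM, Isg15 1.74, 4.79 and 35.9 FPKM, and Oas3 2.63, 2.28 and 17.3 FPKM. Its erythroid sum was 86534 FPKM against 1224 and 1354 FPKM. Without it 21 members were called lower in Lin- than in BMC, with Ifit1, Isg15, Rsad2, Irgm1 and Psmb8 among them. Without BMC replicate 1 or 2 the members called lower numbered 6 and 7. Ifit3, Mx1, Mx2 and Oas2 were not tested without one of the 3 BMC libraries. Markers of mature blood cells fell with the members: 8 of 8 neutrophil (sums 38.8 to 223 against 80619 to 106903 FPKM), 8 of 9 monocyte and macrophage (12.7 to 36.2 against 920 to 1231 FPKM), 9 of 9 T and NK markers tested, 7 of 7 plasmacytoid dendritic, 6 of 6 B lymphoid and 4 of 4 pan-leukocyte markers. Ly6g, a neutrophil marker, and Klk1 were at 0 in all 3 Lin- libraries. The part of these cells in the members' differences was not tested.

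Across the 11 groups, the highest mean lay in irradiated bone EC for 17 of 37 members, among them 9 of 9 GTPases, and in 9Gy1D EC for 14, among them 7 of 10 antiviral genes. For 8 of 9 GTPases the irradiated libraries did not overlap the group with the next highest mean, and for Gbp7 they did. How often all genes had their highest mean in these groups, or showed such a lack of overlap, was not computed, so these counts are descriptions. That next group was LSK for Gbp5 and 9Gy1D EC for the other GTPases. The 9Gy1D EC values were normalized separately, so the order between irradiated bone EC and 9Gy1D EC is not resolved. Oas3 and Mx1 were highest in BMC, Psmb8 and Psmb9 in diaphysis EC, Rsad2 in Vav1 control EC and Trim25 in bone EC. Of these 6 only Mx1 did not overlap the group with the next highest mean, so the order at the top is not resolved for Oas3, Psmb8, Psmb9, Rsad2 and Trim25. The widest range was that of Ubd, from 1064 FPKM on average in irradiated bone EC to 0 in all 3 LSK libraries, at least 756-fold against the highest level of 3 reads there. Iigp1 followed with 703-fold between irradiated bone EC and BMC, and the narrowest range was that of Trim25, 2.87-fold between bone EC and Vav1 DTX EC. These levels stand in tables that were normalized separately and are given as descriptions.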

How the data were processed

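RNA of 33 libraries was sequenced, and the authors deposited 4 tables of FPKM per gene, which were normalized separately. Per the submitters' processing notes, the build was mm10 and the tools were DESeq2 1.18.1, HTSeq 0.6.1, TopHat2 2.1.1 and bcl2fastq 2.19.1.403, with the role of each not given in the sources used here. FPKM values were taken as deposited, and 27 rows named by dates in each of 3 tables were dropped. Whole reads were recovered from the FPKM steps for 100% of genes (tolerance 0.005 reads). No value column was without a sample (0 left unused).

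Each of 8 comparisons was fitted within a table with limma 3.58.1 (R 4.3.3) on log2(FPKM + 1), using only the 6 libraries compared. Genes with at least 1 FPKM in 3 libraries were tested, two-sided, with Benjamini-Hochberg adjustment over all of them and a threshold of 0.05. A fold is a ratio of mean FPKM. The log2(FPKM + 1) scale understates changes of low genes. The fits were tested on simulated data. With 3 libraries a group, precision is limited by their number.

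The 37 members, the further lists and the motifs were chosen with earlier results of these data known. Values per library were given for the antiviral and GTPase members and for other members called in the irradiation or Vav1 comparison, and elsewhere for the members with the largest and smallest differences of a role. Of the other lists, up to 4 called genes with the largest differences were named. Single members, libraries and marker lists that stand out were named after their values were seen.

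Alternatives were TPM, median-of-ratios scaling, a pseudocount of 0.1 or 5, testing every gene or only genes averaging 5 FPKM or more, all libraries of a table together, a replicate block, and each library left out in turn. Added after seeing the data were limma voom on recovered reads, scaling to pan-endothelial markers, and averaging 2 Esm1+ libraries. Over all genes, limma voom on recovered reads called 5525 in the irradiation comparison, against 5463 on log2(FPKM + 1), and 3248 against 3065 in the Vav1 comparison. Figures were drawn with matplotlib 3.10.9.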

Additional observations from a re-analysis of the deposited data

How the results depend on the processing

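In the fits below a member is called at a limma adjusted p below 0.05. In irradiated against bone EC, scaling to the pan-endothelial markers left 11 members higher and 9 lower and turned Irf1 (-0.25), Irf7 (-0.54), Irf9 (-0.69), Stat2 (-0.02), Ifit1 (-0.32), Oasl1 (-0.70), Oasl2 (-0.38), Ifih1 (-0.27), Ddx58 (-0.07), Usp18 (-0.12), Bst2 (-0.14), Ifi35 (-0.41), Xaf1 (-0.30), Psmb8 (-0.92) and Psmb9 (-0.65). In 9Gy1D against Esm1+ EC it left 10 higher and 4 lower and turned Irf1 (-0.44), Irf9 (-0.69), Stat2 (-0.40), Oas3 (-0.25), Ddx58 (-0.17), Trim25 (-1.0), Rsad2 (-1.57), Ifi35 (-0.14), Gbp3 (-0.40), Psmb9 (-1.13) and Tap1 (-0.47). It left 6 lower in the Vav1 comparison, and 0 higher and 4 lower in Apln+ against diaphysis EC. In that last comparison TPM and limma voom on recovered reads each left 0 higher. By construction this scaling moved the median of all genes by -1.05, -1.34, -0.23 and -0.38 in these 4 comparisons.

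In bone EC against LSK, TPM gave 11 higher and 11 lower and turned Stat2 (-0.01), Ifit2 (-0.01), Ddx58 (-0.63), Igtp (-0.07), Gbp2 (-0.36), Psmb8 (-0.68) and Psmb9 (-0.60), voom gave 7 lower and turned Psmb8 (-0.37), and no filter gave 2 lower. In bone EC against BMC the 5 lower members became 3 without a filter and with all libraries together, and 2 with a mean of at least 5 FPKM, TPM or voom; TPM turned Irf9 (0.36) and Ifih1 (0.01), and voom Irf9 (0.31). In Lin- against BMC, a mean of at least 5 FPKM gave 1 higher, and TPM and voom each gave 11 lower. The cause was not tested. TPM moved the median of all genes by -0.66 (LSK), 0.38 (BMC), 0.24 (irradiated), 0.23 (Vav1), 0.23 (9Gy1D), 0.2 (Lin- against BMC), 0.18 (Lin-) and -0.14 (Apln+). The share of calls that were higher went from 53.8% to 68.0% (irradiated), 43.0% to 68.7% (Vav1), 47.2% to 64.0% (9Gy1D), 38.0% to 27.7% (Apln+), 49.0% to 22.8% (LSK) and 50.8% to 68.1% (BMC) with TPM, and to 3.61%, 10.2% and 4.68% in the first 3 with the pan-endothelial scaling.

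With each library left out in turn, members called higher and lower ranged over 27 to 28 and 2 to 4 (irradiated), 0 to 1 and 4 to 29 (Vav1), 0 to 4 and 0 to 15 (Apln+), 28 to 31 and 0 (9Gy1D), 16 to 19 and 2 to 4 (LSK), 23 to 29 and 0 (Lin-), 21 to 23 and 2 to 5 (BMC), and 1 to 3 and 6 to 21 (Lin- against BMC). The replicate numbers were not shown to pair libraries: same-numbered libraries correlated by -0.22 to 0.33 in their deviations from group means, and no comparison had every pair over 0.1. A fit with the replicate block gave 25 higher and 3 lower in irradiated against bone EC, 9 lower in the Vav1 comparison and 0 higher and 5 lower in Apln+ against diaphysis EC. LSK libraries, with the fewest reads, limit precision for low genes most.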

Other observations

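Rsad2 ranked with the erythroid markers over the libraries, a relation noticed in the data. Over all 33 libraries its Spearman rank correlation with the summed erythroid markers (a list led by the globin genes) was 0.90, and Pearson's r of the log2 values was 0.80. Libraries of a group share their source and tables were normalized separately, so these values are a description. For the other members the rank correlation with this sum ran from -0.51 (Gbp5) to 0.44 (Isg15), and for Rsad2 the correlations with the other 8 marker sums ran from -0.03 (T and NK) to 0.54 (B lymphoid). In Lin- cells, Rsad2 read 2.27, 3.59 and 190 FPKM beside erythroid sums of 1224, 1354 and 86534 FPKM. In Vav1 DTX EC, Rsad2 read 11.9 to 28.9 FPKM, beside erythroid sums of 1643 to 3142 FPKM and neutrophil sums of 34388 to 81665 FPKM. B lymphoid sums there were 20.4 to 23.6 FPKM, against 435 to 575 FPKM in Vav1 control EC. Plasmacytoid dendritic sums were 19.1 to 41.4 against 178 to 190 FPKM. Which cells carried the Rsad2 message was not tested. Ifi35 (0.91), Irgm1 (0.90) and Usp18 (0.89) ranked most closely with the pan-endothelial sum.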
